A study of Mus musculus with 6 samples.

Results

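Chemokines are small secreted proteins that guide cells along a concentration gradient, and 7 of their mouse genes were followed here across brain areas: *Ccl3*, *Ccl4*, *Ccl6*, *Ccl12*, *Cxcl10*, *Cxcl16* and *Cx3cl1*. They were taken by symbol from the 32285 mouse genes counted, and all 7 were found. The measurements came from spatial transcriptomics of 6 coronal brain sections, in which barcoded spots on a slide capture polyadenylated RNA from the tissue above them. Each spot covers a small patch that can hold several cells, so a lower count from fewer cells of a type and one from less RNA per cell cannot be told apart. All sections came from female mice that carry human *APOE* in place of the mouse gene, as E3 or as E4. One section of each genotype came from a young mouse of 3 months, an aged mouse of 24 months, and a 5xFAD mouse of 12 months. 5xFAD mice carry transgenes that include mutant human *APP* under the neuronal *Thy1* promoter and deposit amyloid. No section of 12 months without the transgenes was among the samples, so age and amyloid cannot be told apart in the comparison with young mice, and each group was a single section.

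Chemokines bind G protein-coupled receptors, and each ligand pairs with a limited set of them. CCL3 and CCL4 are known as macrophage inflammatory proteins, and CCL3 binds CCR1. CCL6 also binds CCR1, CCL12 is a rodent monocyte chemoattractant for CCR2, CXCL10 is the interferon-inducible ligand of CXCR3, and CXCL16 is made as a membrane protein and binds CXCR6. In brain the first 6 are known mainly as products of microglia and other glial or vascular cells under inflammatory stimulation. CX3CL1, or fractalkine, is instead a membrane-tethered neuronal ligand, released by the sheddases ADAM10 and ADAM17 and read by CX3CR1 on microglia.

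In all, 14524 spots were used, 1688 to 2773 in each section, with medians of 10081.5 to 15360 unique molecular identifiers (UMIs, each counting 1 captured molecule) in a spot. The files held counts for 99.9% of the spots under tissue in the E3 5xFAD section and for 75.9% to 86.0% in the others. The labels held up against the transgene: the human *APP* row held 1869 (E3) and 2926 (E4) UMIs with 5xFAD and at most 10 without it. Spots were clustered without the chemokine genes and the clusters named from marker genes, so the areas are rebuilt and are not the authors' annotation. In each pair of values that follows, E3 comes first and E4 second. The cortex held 913 and 809 spots in young, 735 and 196 in aged and 949 and 857 in 5xFAD mice, which makes the E4 aged cortex the smallest sample by far. Its make-up differed too. The clusters led by *Myl4*, *Lamp5* and *Kcnab3* gave it 19, 8 and 1 spots, against 190, 155 and 98 in E3 aged. Those led by *Ccn3* and *Cyp26b1* gave 89 and 48, against 100 and 13. Differences that involve this section cannot be told apart from which cortex was sampled. The 5 neuronal marker genes summed to 5437 to 6929 CPM (UMIs of a gene or list in every 1000000 UMIs of the area) in the cortex of the 6 sections.

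Of the genes, 5 lie on chromosome 11 (build GRCm38). *Ccl6* (83587882 to 83593087, minus strand), *Ccl3* (83647844 to 83649355, minus strand) and *Ccl4* (83662584 to 83664683, plus strand) are neighbours in one stretch, with 54.8 kb between *Ccl6* and *Ccl3* and 13.2 kb between *Ccl3* and *Ccl4*. *Ccl12* (82101845 to 82103400, plus strand) lies 1484 kb away from *Ccl6*, and *Cxcl16* (70453983 to 70459984, minus strand) lies elsewhere on the chromosome. *Cxcl10* is on chromosome 5 (92346638 to 92348889, minus strand) and *Cx3cl1* on chromosome 8 (94772009 to 94782427, plus strand). RefSeq promoter windows of 250 bases before to 50 bases after the start (GRCm38.p6) were at hand for 5 of the genes. Those of 3 genes are shown because they stand for the different courses described here, a gene that was near 0 in young brain and high in single spots (*Cxcl10*), one that was near 0 in young cortex and moderate in many spots (*Ccl3*), and one that was abundant in every section (*Cx3cl1*). Capitals mark matches to the NF-kB motif, to the interferon-stimulated response element (ISRE) and to the TATA box (TATAAA), each sought on both strands.
Cxcl10, chr5:92348840-92349139, minus strand: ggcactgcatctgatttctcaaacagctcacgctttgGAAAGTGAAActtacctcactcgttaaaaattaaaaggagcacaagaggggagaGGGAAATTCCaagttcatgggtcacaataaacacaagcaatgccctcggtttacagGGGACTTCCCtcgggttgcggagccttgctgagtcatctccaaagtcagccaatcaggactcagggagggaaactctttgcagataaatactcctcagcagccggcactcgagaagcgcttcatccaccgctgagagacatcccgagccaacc
Ccl3, chr11:83649329-83649628, minus strand: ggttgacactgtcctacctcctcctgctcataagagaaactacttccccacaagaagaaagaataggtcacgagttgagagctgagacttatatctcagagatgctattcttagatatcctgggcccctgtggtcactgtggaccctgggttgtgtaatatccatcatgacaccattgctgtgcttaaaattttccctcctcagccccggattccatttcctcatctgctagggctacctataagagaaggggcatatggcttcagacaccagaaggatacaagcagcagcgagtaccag
Cx3cl1, chr8:94771930-94772229, plus strand: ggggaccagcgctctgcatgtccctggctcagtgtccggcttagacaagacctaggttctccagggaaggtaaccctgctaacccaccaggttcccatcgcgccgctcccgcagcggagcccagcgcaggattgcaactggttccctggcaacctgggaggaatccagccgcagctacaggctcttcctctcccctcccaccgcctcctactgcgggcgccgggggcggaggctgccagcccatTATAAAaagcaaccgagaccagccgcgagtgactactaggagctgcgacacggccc

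The *Cxcl10* window held an ISRE match 213 bases before the start and NF-kB matches at 159 and 103 bases before it. It also held a match to the AP-1 motif (TGANTCA) at 74 bases, left in lower case, and none of these matches overlapped another. Of 32851 mouse promoter windows of this length, 3.44% held the ISRE motif, 4.51% the NF-kB motif and 7.81% the AP-1 letters. The windows of *Ccl3* and *Ccl6* held none of the motifs sought, and those of *Ccl12* and *Cx3cl1* held a TATA match only, 31 and 6 bases before the start, as did 13.6% of all windows. The interferon-gamma site (GAS, TTCNNNGAA, in 8.30% of windows) and the PU.1 site (GAGGAAGT, in 3.20%) were matched in none of the 5. The bases were 64.7% G or C in *Cx3cl1* and 45.3% to 50.3% in the other 4. A match describes the letters in a window and says nothing of use of the site in these cells.

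*Cx3cl1* was the one abundant gene of the group. It gave 88784 UMIs over all sections and was seen in 84.5% of spots, while *Ccl6* gave 1762 UMIs in 9.65% of spots, *Ccl3* 967, *Ccl4* 822, *Cxcl16* 509, *Cxcl10* 289 and *Ccl12* 286. The 5xFAD sections held 33.1% of all UMIs. They held 78.3% of those of *Ccl6*, 78.2% of those of *Cxcl10*, 73.4% of those of *Ccl3*, 64.2% of those of *Ccl4*, 63.7% of those of *Cxcl16* and 58.0% of those of *Ccl12*, against 33.9% of those of *Cx3cl1*. The share of the 6 sparse genes in the 5xFAD sections was thus above the share of all UMIs there, and that of *Cx3cl1* was next to it.

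**Figure D1:**
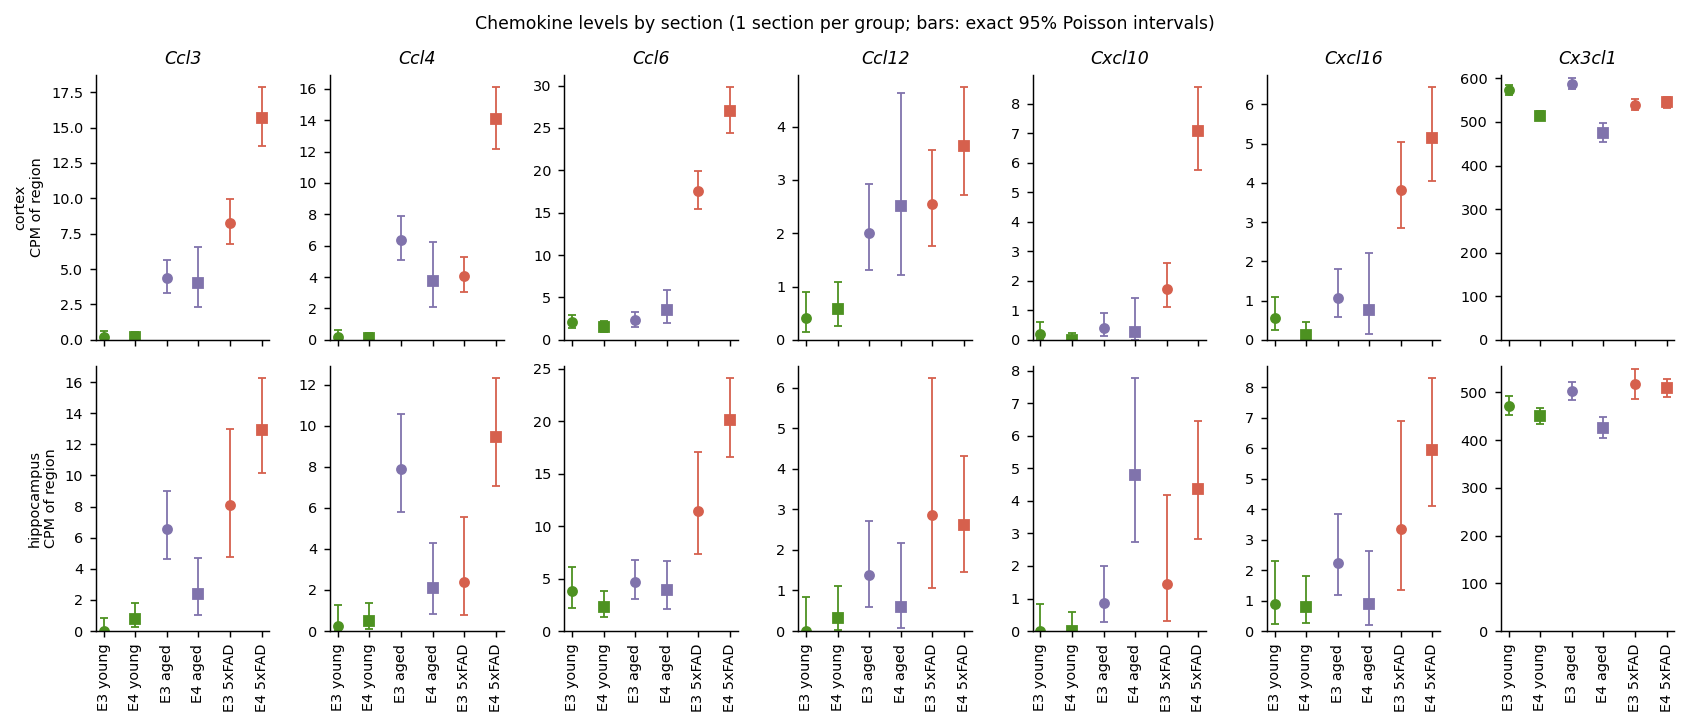
Level of each of the 7 chemokine genes in cortex (top) and hippocampus (bottom) in CPM, with 1 point per section, circles for E3 and squares for E4, and bars for exact 95% Poisson intervals, which cover counting error only. In cortex *Ccl3* runs from 0.19 CPM in E4 young to 15.69 CPM in E4 5xFAD, while *Cx3cl1* lies between 475 and 588 CPM in all sections.

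*Ccl3*, whose product attracts monocytes and T cells, was close to absent from young cortex and highest in E4 5xFAD. The cortex gave 3 *Ccl3* UMIs in each young section (0.21 CPM in E3 and 0.19 in E4), 57 in E3 aged (4.38 CPM) and 16 in E4 aged (4.03 CPM), 110 in E3 5xFAD (8.26 CPM) and 229 in E4 5xFAD (15.69 CPM). The 3 conditions did not overlap, since both aged sections lay above both young ones and both 5xFAD sections above both aged ones. A *Ccl3* UMI was seen in 0.328% and 0.371% of E3 and E4 young cortical spots, in 6.67% and 7.65% of aged ones, and in 8.85% and 23.5% of 5xFAD ones. Over both genotypes, *Ccl3* was higher in 5xFAD than in young cortex by 5.74 ± 0.40 (log2 fold change ± SE; edgeR's quasi-likelihood test over the 6 sections, Benjamini-Hochberg adjusted p = 0.000785).

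*Ccl4*, the neighbour of *Ccl3* in the genome, had 3 and 2 UMIs in E3 and E4 young cortex (0.21 and 0.13 CPM), 83 and 15 in E3 and E4 aged cortex (6.37 and 3.78 CPM), and 54 and 205 in E3 and E4 5xFAD cortex (4.06 and 14.04 CPM). Young cortex was again the lowest, but the aged and 5xFAD sections overlapped: E3 5xFAD lay below E3 aged, by a log2 ratio of −0.65 (95% counting interval −1.17 to −0.14), and E4 5xFAD lay above E4 aged, by 1.89 (1.14 to 2.76). Against young cortex *Ccl4* was higher in 5xFAD by 5.52 ± 0.76 (edgeR adjusted p = 0.0197). Without the E4 young section the log2 value was 4.79 and the adjusted p 0.211, so this call rested on that section.

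*Ccl6*, a ligand known from macrophages and from resting as well as activated microglia, was the most abundant of the sparse genes and separated 5xFAD from both other conditions. In the cortex it gave 30 and 24 UMIs in E3 and E4 young sections (2.06 and 1.52 CPM), 30 and 14 in E3 and E4 aged sections (2.30 and 3.53 CPM), and 234 and 395 in E3 and E4 5xFAD sections (17.58 and 27.06 CPM). The aged sections lay just above the young ones and the 5xFAD sections far above both. The log2 fold change against young cortex was 3.52 ± 0.24 (edgeR adjusted p = 0.000785).

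*Ccl12* was low throughout. Cortical counts were 6 and 9 UMIs in young sections (0.41 and 0.57 CPM), 26 and 10 in aged sections (2.00 and 2.52 CPM) and 34 and 53 in 5xFAD sections (2.55 and 3.63 CPM). Young sections were the lowest, and the aged and 5xFAD values lay next to each other. The difference between 5xFAD and young was 2.53 ± 0.36 (edgeR adjusted p = 0.0220). It lost its call without E3 young, E4 5xFAD or E4 young, with adjusted p of 0.205, 0.270 and 0.493.

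*Cxcl10*, which recruits T cells through CXCR3, was high in 1 section. Its cortical counts were 3 and 0 UMIs in young sections (0.21 and 0 CPM), 5 and 1 in aged sections (0.38 and 0.25 CPM) and 23 and 103 in 5xFAD sections (1.73 and 7.06 CPM). Both 5xFAD sections exceeded the other 4, and E4 5xFAD stood well above E3 5xFAD. Against the 3 UMIs that a count of 0 allows, E4 5xFAD cortex was at least 37.2-fold higher than E4 young cortex. In cortex the gene passed the filter on low counts only through the 5xFAD sections, and its call is not independent of that. The fitted log2 fold change over both genotypes was 5.13 ± 0.85 (edgeR adjusted p = 0.0376). It was 3.25 without E4 5xFAD (adjusted p = 0.567) and 3.17 without E4 young (adjusted p = 0.700).

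*Cxcl16*, a transmembrane ligand and scavenger receptor, gave 8 and 2 UMIs in young cortex (0.55 and 0.13 CPM), 14 and 3 in aged cortex (1.07 and 0.76 CPM) and 51 and 75 in 5xFAD cortex (3.83 and 5.14 CPM). The 5xFAD sections were the highest and did not overlap the rest. The log2 fold change against young cortex was 3.64 ± 0.51 (edgeR adjusted p = 0.0209). It was 2.94 without E4 5xFAD and 2.82 without E4 young, with adjusted p of 0.171 and 0.281.

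*Cx3cl1* did not share this course. It stood at 573 and 515 CPM in young, 588 and 475 CPM in aged and 540 and 545 CPM in 5xFAD cortex, with 1886 UMIs in E4 aged and 7190 to 8340 in each of the other sections. The 5xFAD values fell within the range of the others, and the fold change against young was −0.09 ± 0.10 on the log2 scale (edgeR adjusted p = 0.806). Its receptor gene *Cx3cr1*, which marks microglia, was higher: 30.5 and 23.8 CPM in E3 and E4 young cortex, 31.8 and 34.2 in E3 and E4 aged cortex, and 52.2 and 51.2 in E3 and E4 5xFAD cortex, with a log2 fold change against young of 0.84 ± 0.12 (edgeR adjusted p = 0.0209).

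Thus 6 of 7 chemokine genes were higher in 5xFAD than in young cortex and none was lower, with *Cxcl10* tested only because of its 5xFAD counts. Of the 14961 genes tested there, 0.976% were called higher. The median log2 fold change was 3.64 over the 7 genes and −0.000253 over all genes tested. The count fell most without E4 young and without E4 5xFAD. The share of all genes called in those fits is not given here. The log2 ratio was above 0 in both genotypes for all 6, from 2.63 (1.36 to 4.17) for *Ccl12* to 5.32 (3.74 to 7.62) for *Ccl3* in E3. In E4 it ran from 2.67 (1.64 to 3.88) for *Ccl12* to 6.79 (4.92 to 9.85) for *Ccl4*, with *Cxcl10* left out because its young count was 0.

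**Figure D2:**
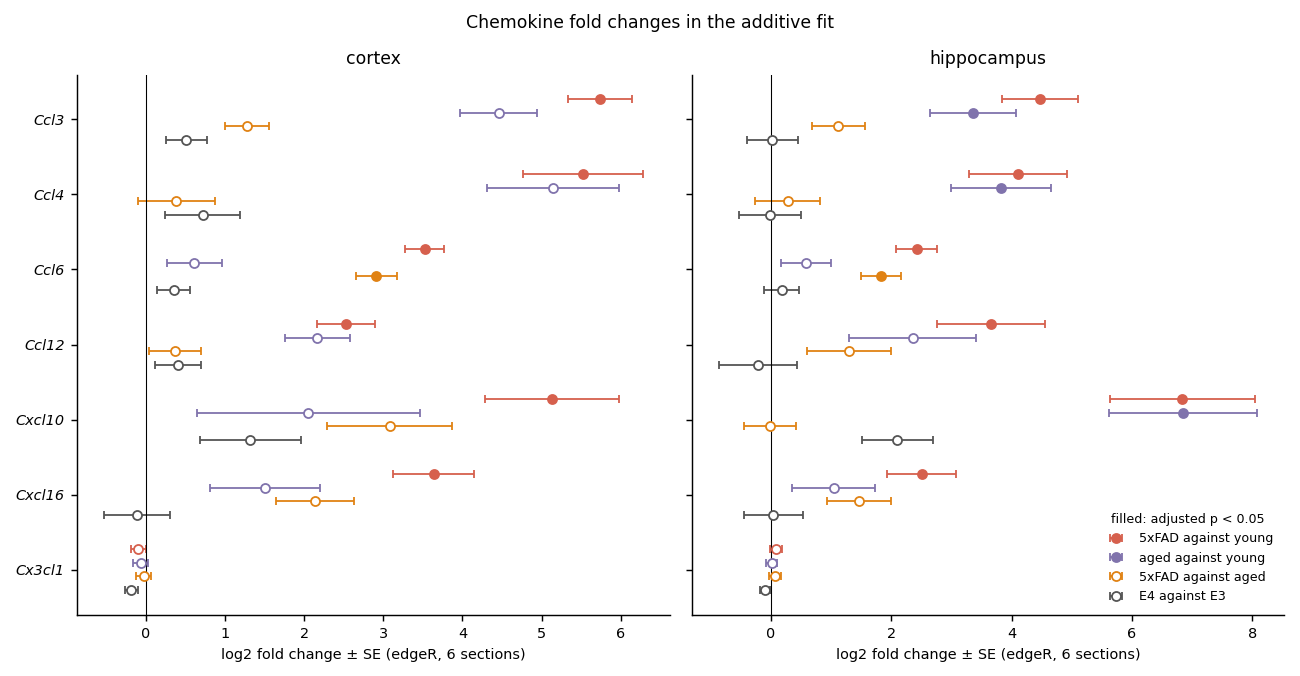
Log2 fold changes of the 7 chemokine genes from the edgeR fit over 6 sections, in cortex (left) and hippocampus (right) for the 4 comparisons, with SE bars and filled points for an adjusted p under 0.05. The 6 sparse genes lie between 2.53 and 5.74 for 5xFAD against young cortex (hippocampal *Cxcl10* values against young, at 0 UMIs, depend on the prior count), and *Cx3cl1* lies at −0.09.

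The hippocampus gave fewer UMIs but the same 6 calls. *Ccl3* had 0 and 5 UMIs in young (0 and 0.77 CPM), 38 and 8 in aged (6.54 and 2.39 CPM) and 17 and 74 in 5xFAD hippocampus (8.11 and 12.93 CPM). *Ccl6* had 17 and 15 in young (3.83 and 2.32 CPM), 27 and 13 in aged (4.65 and 3.89 CPM) and 24 and 115 in 5xFAD hippocampus (11.45 and 20.09 CPM). For both genes the 5xFAD sections were the highest, and for *Ccl3* the E3 aged section came close to E3 5xFAD. Against young hippocampus, *Ccl3* was higher by 4.48 ± 0.63 (edgeR adjusted p = 0.000445) and *Ccl6* by 2.42 ± 0.34 (0.000439).

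*Ccl4* had 1 and 3 UMIs in young (0.23 and 0.46 CPM), 46 and 7 in aged (7.92 and 2.09 CPM) and 5 and 54 in 5xFAD hippocampus (2.39 and 9.44 CPM), so that E3 aged was next to E4 5xFAD and E3 5xFAD next to E4 aged. *Ccl12* reached at most 15 UMIs and *Cxcl16* at most 34, both in E4 5xFAD. *Cxcl10* was at 0 in both young sections and gave 5 and 16 UMIs in the aged and 3 and 25 in the 5xFAD sections. Of the 16 in E4 aged, 11 came from a single spot. Against the limit of 3 UMIs, *Cxcl10* was at least 9.40-fold higher in E4 5xFAD than in E4 young hippocampus, *Ccl3* at least 12.0-fold higher in E3 5xFAD than in E3 young, and *Ccl12* at least 4.23-fold higher in the same pair.

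The fit called *Ccl4* (4.11 ± 0.81, edgeR adjusted p = 0.0105), *Cxcl16* (2.51 ± 0.57, adjusted p = 0.0309), *Ccl12* (3.66 ± 0.89, adjusted p = 0.0484) and *Cxcl10* (adjusted p = 0.00523, with young sections at 0 and hence no bounded fold change) as well. *Cx3cl1* was at 426 to 517 CPM and differed by 0.09 ± 0.10 (adjusted p = 0.842). Of the 13250 genes tested in hippocampus 1.01% were called higher. There *Ccl12* and *Cxcl16* passed the filter on low counts only through the 5xFAD sections. *Cxcl10* passed it only through E4 aged and E4 5xFAD, so its calls are not independent of its high sections. The hippocampal count fell in other fits. DESeq2 called 1 of 7, and 2 of 7 were called by marker score alone, the naming rule set before the clusters were seen. The count also fell without E4 5xFAD or E4 young. The share of all genes called in these fits is not given here, so a change in all genes cannot be told from one in the chemokines. Without E4 5xFAD the fold changes were 1.83 for *Ccl4* (adjusted p = 0.674), 1.60 for *Ccl6* (0.190) and 1.47 for *Cxcl16* (0.716).

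In the thalamus *Ccl3*, *Ccl4*, *Ccl6* and *Cxcl16* were highest in the 5xFAD sections, and the first 3 of these had higher values in E3 than in E4. *Ccl6* gave 220 UMIs in E3 5xFAD (50.43 CPM) and 141 in E4 5xFAD (28.19 CPM), against 14 and 3 in young (1.56 and 0.80 CPM) and 36 and 33 in aged mice (5.80 and 6.12 CPM). It rose against young by 4.89 ± 0.30 (edgeR adjusted p = 3.72e-06), and here the aged sections too lay above the young ones, by a value that did not pass the test (2.29 ± 0.39, adjusted p = 0.0601). *Ccl4* (3.98 ± 0.71, adjusted p = 0.0122) and *Cxcl16* (2.80 ± 0.44, adjusted p = 0.00480) were also higher in 5xFAD, so that 3 of the 5 chemokine genes that could be tested were called, where 1.75% of all 13344 genes were called higher. No single section decided these 3 calls. *Ccl12* and *Cxcl10* did not pass the filter on low counts there.

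*Ccl3* was not called in the thalamus, at 2.88 ± 0.74 (edgeR adjusted p = 0.102). Its counts were 3 and 26 UMIs in young (0.33 and 6.96 CPM), 30 and 7 in aged (4.83 and 1.3 CPM) and 105 and 79 in 5xFAD thalamus (24.07 and 15.79 CPM). E4 young exceeded both aged sections there, whereas in cortex and hippocampus it lay below both. One of its thalamic spots held 8 *Ccl3* and 3 *Ccl4* UMIs. Without the spots that held 8 or more UMIs of one sparse chemokine, E4 young thalamus was at 4.84 CPM and the fold change was 3.40 (adjusted p = 0.0287). *Cx3cl1* was at 424 to 616 CPM in the thalamus.

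Elsewhere counts were small. In cerebral nuclei *Ccl6* (1.71 ± 0.38, edgeR adjusted p = 0.0151) and *Ccl4* (2.82 ± 0.72, adjusted p = 0.0455) were higher in 5xFAD than in young, 2 of 3 genes tested against 0.679% of all genes called higher, and in hypothalamus *Ccl6* alone was (2.39 ± 0.38, adjusted p = 0.0119), 1 of 5 against 0.214%. In cerebral nuclei the *Ccl6* call was lost without any 1 of the 6 sections (adjusted p 0.0562 to 0.601), and that of *Ccl4* without any but E4 5xFAD (0.0644 to 0.516). In fiber tracts, meninges and the ventricular system only *Cx3cl1* passed the filter, and it was not called. Over all spots of a section together, *Ccl3*, *Ccl4*, *Ccl6*, *Ccl12* and *Cxcl16* were called, 5 of 7 against 0.764% of all genes, and *Cxcl10* was not (4.43 ± 0.67, adjusted p = 0.0534). Without E4 5xFAD only *Ccl6* kept its call over all spots, with adjusted p of 0.341 for *Ccl3*, 0.174 for *Ccl4*, 0.263 for *Ccl12* and 0.264 for *Cxcl16*.

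**Figure D3:**
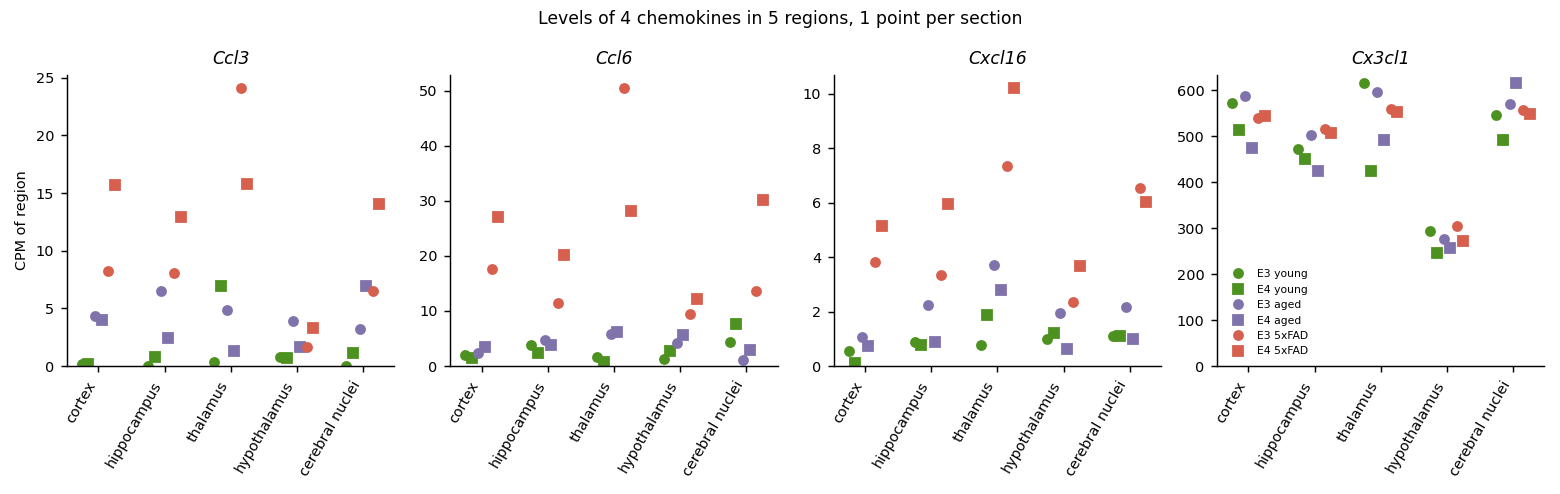
Level of *Ccl3*, *Ccl6*, *Cxcl16* and *Cx3cl1* in 5 brain areas (CPM), with 1 point per section. *Ccl6* in E3 5xFAD reaches 50.43 CPM in thalamus and 17.58 CPM in cortex, while *Cx3cl1* is lower in hypothalamus than in the other 4 areas in every section.

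The order of areas within a gene could not be settled for any pair of neighbours. *Cx3cl1* was highest in cerebral nuclei (555 ± 39.8 CPM, SD, n = 6 sections), thalamus (541 ± 71.4) and cortex (539 ± 40.8), then hippocampus (479 ± 36.1), meninges (326 ± 90.6), hypothalamus (275 ± 22.0), fiber tracts (233 ± 89.4) and the ventricular system (191 ± 43.7). *Cxcl16* ran from 12.5 ± 7.65 CPM in the ventricular system and 8.03 ± 3.64 in meninges down to 1.91 ± 2.06 in cortex, on counts of 1 to 10 UMIs a section in the first 2 areas. Of 49 pairs of neighbouring areas over the 7 genes, none differed after adjustment (exact two-sided sign-flip permutation test within sections, all adjusted p = 1). The smallest p that 6 sections allow is 0.03125, reached for *Cx3cl1* in hippocampus over meninges, where hippocampus was higher in 6 of 6 sections. After adjustment over 49 pairs a single pair at that floor cannot pass. The adjusted values therefore could not show an order and say nothing against one.

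Of the 7 genes *Ccl6* alone passed the test between 5xFAD and aged sections. Its log2 fold change was 2.91 ± 0.26 in cortex (edgeR adjusted p = 0.00370), where 0.428% of all genes were called higher, and 1.84 ± 0.33 in hippocampus (adjusted p = 0.00587), where 0.687% were. It was 2.60 ± 0.23 in thalamus (adjusted p = 0.000104, 1.14% of genes called higher) and 3.33 ± 0.52 in cerebral nuclei (adjusted p = 0.000253, 0.679% called higher). In hypothalamus it was 1.06 ± 0.32 and was not called (adjusted p = 0.357). The calls in cortex and thalamus held without any 1 section, while that in cerebral nuclei was lost without E3 aged, E4 5xFAD or E4 aged (adjusted p of 0.0639, 0.125 and 0.18). The cortical ratio was nearly the same in both genotypes, with log2 values of 2.93 (2.38 to 3.53) in E3 and 2.94 (2.18 to 3.82) in E4.

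The others did not pass the test against aged cortex. *Ccl3* was at 1.28 ± 0.27 (edgeR adjusted p = 0.132), *Cxcl16* at 2.14 ± 0.50 (0.160), *Cxcl10* at 3.08 ± 0.80 (0.204), *Ccl4* at 0.38 ± 0.49 (0.811) and *Ccl12* at 0.36 ± 0.33 (0.707). In this comparison age runs against amyloid, since the 5xFAD mice were the younger. The cortical count rose without E3 5xFAD or without E3 aged. In hippocampus it fell without E4 5xFAD or E4 aged and rose without E3 aged, E3 young or E4 young. DESeq2 gave 0 of 7 there. The share of all genes called in these fits is not given here, so a change in all genes cannot be told from one in the chemokines.

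Between aged and young cortex, *Ccl3*, *Ccl4* and *Ccl12* had the largest differences. None of the 7 was called (edgeR; 0.0201% of all genes were, and 3 of the 7 had an unadjusted p under 0.05), with *Ccl3* at 4.46 ± 0.48 (adjusted p = 0.0535), *Ccl4* at 5.14 ± 0.84 (0.409) and *Ccl12* at 2.17 ± 0.41 (0.661). DESeq2 called 2 of 7, and the share of all genes it called is not given here. The log2 ratio of aged over young cortex was 4.41 (2.79 to 6.73) in E3 and 4.41 (2.60 to 6.83) in E4 for *Ccl3*, and 4.95 (3.35 to 7.26) and 4.90 (2.80 to 8.07) for *Ccl4*. *Ccl6* was at 0.16 (−0.62 to 0.94) in E3 and 1.22 (0.15 to 2.23) in E4.

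In hippocampus 3 of 7 were called as higher in aged mice, where 0.332% of all genes were: *Ccl3* (3.36 ± 0.72, edgeR adjusted p = 0.0392), *Ccl4* (3.82 ± 0.83, adjusted p = 0.0447) and *Cxcl10* (adjusted p = 0.0104, with young at 0). *Cxcl10* had passed the filter on low counts only through E4 aged and E4 5xFAD. No chemokine gene was called with DESeq2 or without the spots of 8 or more UMIs, and the count fell without E3 aged. The share of all genes called in these fits is not given here. The *Cxcl10* call was lost without E4 aged (adjusted p = 0.318) or E4 young (0.968). The 10 immediate early genes, which neurons and glia induce within minutes of a stimulus, moved with this comparison. All 10 were called higher in aged than in young hippocampus and all 10 lower in 5xFAD than in aged hippocampus, where 64 of 13250 genes were called lower. Their summed cortical level was 749 and 1025 CPM in young, 1857 and 1215 in aged and 475 and 796 in 5xFAD mice. Red blood cell genes summed to 96.1 to 193 CPM in the young and aged cortex and to 16.4 and 12.1 CPM in E3 and E4 5xFAD. All 4 that could be tested were called lower in 5xFAD than in young cortex, where 16 of 14961 genes were, and all 4 higher in aged than in young hippocampus. The part of either in the chemokine values was not tested.

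Across the 3 conditions together, genotype made no call. None of the 7 genes passed the test of E4 against E3 in cortex or in hippocampus (edgeR; 0.0134% and 0.143% of all genes were called, and 1 of the 7 had an unadjusted p under 0.05 in each area). DESeq2 called none either. The gene nearest to the threshold was *Cxcl10* in hippocampus, at 2.10 ± 0.59 (adjusted p = 0.415). For *Cx3cl1* in cortex the value was −0.18 ± 0.08 (adjusted p = 0.899). Leaving out E3 aged or E4 aged raised the count in cortex, and the share of all genes called in those fits is not given here.

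Within the 5xFAD pair, E4 cortex was above E3 cortex for 4 genes by more than the counting error, which is all that an interval between 2 single sections covers. The share of all genes with such an interval is not given here, so the count of 4 says nothing of the chemokines in particular. The log2 ratios were 2.03 (1.37 to 2.75) for *Cxcl10*, 1.79 (1.35 to 2.25) for *Ccl4*, 0.93 (0.59 to 1.27) for *Ccl3* and 0.62 (0.39 to 0.86) for *Ccl6*. *Ccl12* (0.51, −0.14 to 1.17), *Cxcl16* (0.42, −0.11 to 0.97) and *Cx3cl1* (0.01, −0.03 to 0.06) had intervals that held 0. With equal numbers of spots from each cluster the interval stayed above 0 for 1 gene. The E4 5xFAD section also had more UMIs of human *APP* and, in cortex, more of *Cst7*, a protease inhibitor gene that microglia switch on near amyloid, with 631 UMIs (47.4 CPM) in E3 and 1639 (112 CPM) in E4. Their part in the difference was not tested, and mouse and genotype cannot be told apart. The 2 files also differed in Space Ranger version (2.0.0 in E3, 1.2.2 in E4). They held counts for 99.9% (E3) and 81.3% (E4) of the spots under tissue, and genotype cannot be told apart from this either.

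The thalamus went the other way for *Ccl6* (−0.84, −1.15 to −0.53) and *Ccl3* (−0.61, −1.05 to −0.17), both higher in E3 5xFAD, and the same way for *Cxcl10* (2.18, 0.78 to 3.92). *Cst7* in that area was likewise higher in E3, at 171 against 126 CPM (−0.44, −0.60 to −0.29). In hippocampus *Ccl4* (1.98, 0.67 to 3.66) and *Ccl6* (0.81, 0.17 to 1.51) were higher in E4 5xFAD. *Cxcl10* and *Cxcl16* had E4 values above E3 values in all 3 areas, while *Ccl3* and *Ccl6* changed sides between cortex and thalamus. Whether the areas differ was not tested.

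**Figure D4:**
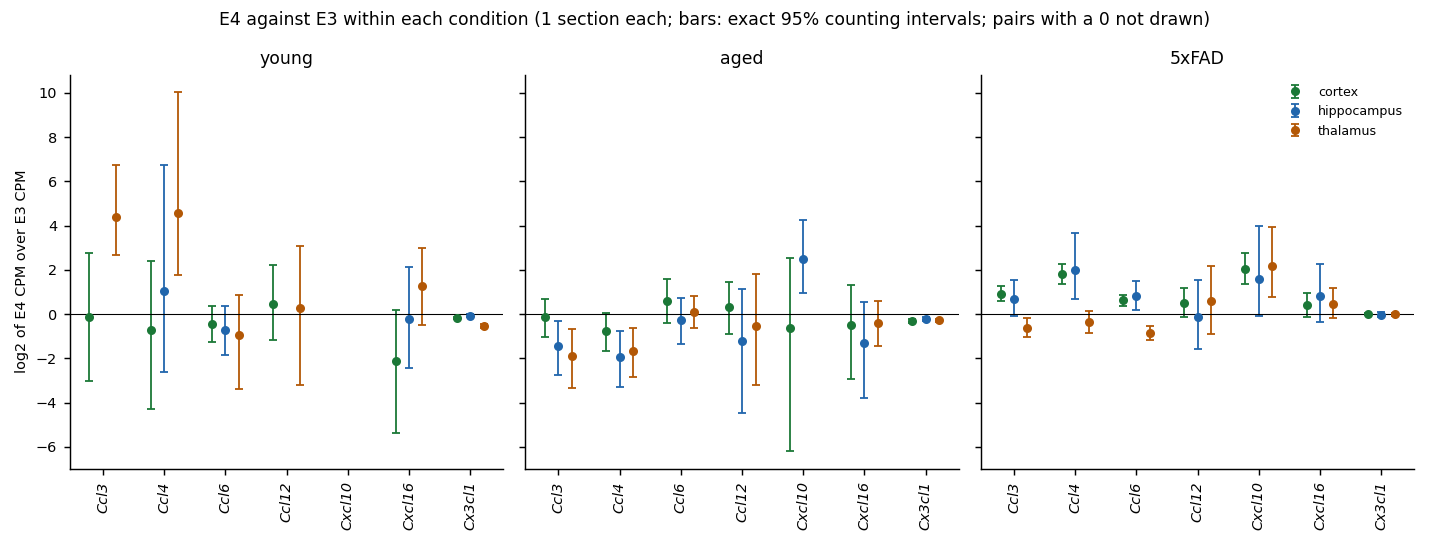
Log2 ratio of the E4 over the E3 section in young, aged and 5xFAD mice for the 7 chemokine genes in cortex, hippocampus and thalamus, with exact 95% counting intervals and pairs with a count of 0 left out. In 5xFAD cortex the intervals of *Ccl3*, *Ccl4*, *Ccl6* and *Cxcl10* lie above 0, and in 5xFAD thalamus those of *Ccl3* and *Ccl6* lie below it.

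Outside the 5xFAD pair, the differences between genotypes were of another kind. In aged hippocampus E4 was below E3 for *Ccl3* (−1.45, −2.76 to −0.33) and *Ccl4* (−1.92, −3.31 to −0.76), as it was in aged thalamus (−1.90, −3.33 to −0.68, and −1.68, −2.86 to −0.65). Others went the opposite way. In aged hippocampus *Cxcl10* was higher in E4 (2.47, 0.96 to 4.28), but at 0.80 (−1.32 to 2.92) without the spots of 8 or more UMIs, 1 of which held 11 of its 16. In young thalamus *Ccl3* (4.38, 2.67 to 6.75) and *Ccl4* (4.58, 1.77 to 10.02) were higher in E4, on 3 UMIs and 1 UMI in E3. *Cx3cl1* was slightly lower in E4 than in E3 cortex of young mice (−0.16, −0.20 to −0.11) and of aged mice (−0.31, −0.38 to −0.24), where the make-up of the cortex also differed. These intervals leave out the spread between mice.

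The sparse genes were also set against the microglial RNA of each section. The 12 homeostatic microglia genes summed to 552 and 440 CPM in E3 and E4 young cortex and to 1265 and 1564 in E3 and E4 5xFAD cortex, 2.29-fold and 3.55-fold higher, and 7 of the 12 were called higher by the edgeR test. Per 1000 UMIs of that list, *Ccl3* stood at 0.37 and 0.43 in E3 and E4 young, 7.94 and 6.64 in E3 and E4 aged, and 6.53 and 10.03 in E3 and E4 5xFAD. On this scale the aged and 5xFAD sections overlapped, and both lay far above young. *Ccl4* per 1000 was 11.56 and 6.22 in E3 and E4 aged against 3.21 and 8.98 in E3 and E4 5xFAD. *Ccl12* was highest in the aged sections (3.62 and 4.15, against 2.02 and 2.32 in 5xFAD). *Cxcl16* was at 1.95 and 1.24 in aged and at 3.03 and 3.29 in 5xFAD sections, and *Cxcl10* at 0.70 and 0.41 and at 1.37 and 4.51.

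*Ccl6* per 1000 homeostatic microglia UMIs still set 5xFAD apart, at 3.74 and 3.45 in E3 and E4 young, 4.18 and 5.81 in E3 and E4 aged, and 13.90 and 17.30 in E3 and E4 5xFAD, 3.72-fold higher than young in E3 and 5.02-fold in E4. Against the 9 measured genes of amyloid-associated microglia *Ccl6* was 2.83-fold and 3.55-fold higher, and the E4 5xFAD value was 0.980 times the E3 one. *Ctsd* made up most of that list, at 303 and 297 CPM in E3 and E4 young cortex. It reached 743 and 1129 CPM in 5xFAD cortex. The genes rose unequally, *Trem2* from 19.5 and 18.3 to 102 and 184 CPM and *Lpl* from 14.4 and 14.6 to 19.1 and 30.0. Values set against the list thus follow *Ctsd* mostly. On that same list the E4 value stood at 1.21 times the E3 value for *Ccl3*, 2.20 for *Ccl4*, 2.60 for *Cxcl10*, 0.905 for *Ccl12* and 0.854 for *Cxcl16*. On the homeostatic list it was 1.54 for *Ccl3*, 2.80 for *Ccl4*, 1.24 for *Ccl6* and 3.30 for *Cxcl10*. *Cx3cl1* stood at 1038 and 1169 per 1000 homeostatic microglia UMIs in E3 and E4 young and at 427 and 348 in E3 and E4 5xFAD.

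Other cells known to make these chemokines left few UMIs. T and NK cell genes summed to 1 to 30 UMIs in the cortex of a section (0.252 to 2.25 CPM) with *Gzmb* at 0 in all, and neutrophil and monocyte genes to 1 to 47 (0.252 to 2.97 CPM) with *Ly6g* at 0 in all. The largest T and NK sums were those of E3 5xFAD (30 UMIs) and E4 5xFAD (24). Border macrophage genes summed to 2.75 to 4.81 CPM, with E3 5xFAD the highest. Of these 3 lists of 7 genes each, 2 border macrophage genes, 1 T and NK cell gene and 2 neutrophil and monocyte genes could be tested, and none was called between 5xFAD and young cortex.

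In the 5xFAD cortex, spots with a *Cst7* UMI were compared with their neighbours on the array that had none. Medians of 14288 and 12958 UMIs per spot in E3, and of 17440 and 16582 in E4, favoured the *Cst7* spots slightly, and CPM takes account of that. In E3 5xFAD, *Ccl6* was at 23.7 CPM in 370 *Cst7* spots and 14.0 in 499 neighbours (log2 ratio 0.77, 0.37 to 1.16), *Ccl3* at 11.7 and 5.96 (0.97, 0.38 to 1.57) and *Cxcl16* at 5.84 and 2.76 (1.08, 0.22 to 1.98). In E4 5xFAD, *Ccl6* was at 29.8 CPM in 599 *Cst7* spots and 20.02 in 255 neighbours (0.57, 0.22 to 0.94) and *Ccl3* at 17.6 and 10.6 (0.73, 0.24 to 1.24).

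The interval of *Cxcl16* in E4 just reached 0 (5.90 and 3.21 CPM, 0.88, −0.0015 to 1.86). Those of *Ccl4* held 0 in both sections, with 5.30 and 3.64 CPM in E3 (0.54, −0.28 to 1.37) and 15.2 and 10.9 CPM in E4 (0.49, −0.0042 to 1.001). *Ccl12* did not differ beyond counting error in either section (−0.22, −1.36 to 0.87 in E3 and −0.17, −1.05 to 0.78 in E4), nor did *Cx3cl1* (−0.05, −0.12 to 0.02 and −0.04, −0.11 to 0.03). *Cxcl10* did not differ beyond counting error in E3 (−0.05, −1.40 to 1.25) and was higher beside *Cst7* in E4 (1.84, 0.90 to 2.95), where 1 spot gave 37 of the 93 UMIs. In the thalamus the ratio for *Ccl6* was 1.34 (0.82 to 1.91) in E3, where the median depth was 12302 UMIs in *Cst7* spots and 11057 in neighbours, and 0.89 (0.29 to 1.53) in E4, where it was 12153 and 5831. In hippocampus both intervals for *Ccl6* held 0 (0.71, −0.77 to 2.09 in E3 and 0.57, −0.02 to 1.18 in E4). The microglial gene *Cx3cr1* was also higher in *Cst7* spots, by 0.27 (0.04 to 0.49) in E3 and 0.39 (0.14 to 0.65) in E4 cortex. In thalamus it was higher by 0.81 (0.41 to 1.23) in E3 and 0.47 (0.09 to 0.85) in E4. In hippocampus its interval held 0 in E3 and not in E4 (0.41, 0.05 to 0.78). Whether the chemokines exceed *Cx3cr1* in this was not tested. Spots of 1 section are not replicates, so these intervals describe counting only.

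**Figure D5:**
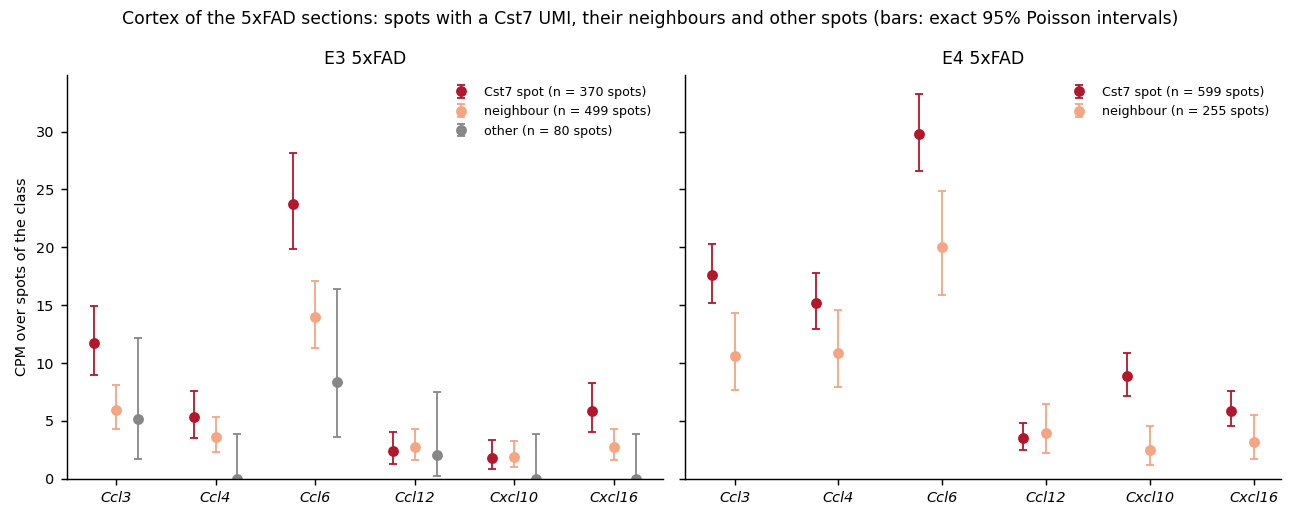
Level of the 6 sparse chemokine genes in the cortex of the 2 5xFAD sections (CPM) in spots with a *Cst7* UMI, in their neighbours without one and, for E3, in the remaining spots, with exact 95% Poisson intervals. *Ccl6* and *Ccl3* are higher in *Cst7* spots than in neighbours in both sections, and *Ccl12* is not. The microglial gene *Cx3cr1*, not drawn, was also higher in the *Cst7* spots.

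The UMIs of the genes were spread unequally over spots. In the E4 5xFAD section the 10 richest spots held 39.3% of *Cxcl10* UMIs but 5.52% of those of *Ccl6* and 6.62% of those of *Ccl3*. A cortical spot of that section alone held 37 *Cxcl10* UMIs, in 20480 UMIs of all genes, along with 33 UMIs of 12 type I interferon response genes. Without the spots that held 8 or more UMIs of 1 sparse gene, E4 5xFAD cortex was at 3.98 CPM of *Cxcl10*, and the E4 over E3 ratio was 1.21 (0.49 to 1.97).

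Spots with *Cxcl10* held more RNA of interferon response genes than spots without it. In E3 5xFAD cortex those genes summed to 369 CPM in 19 spots with a *Cxcl10* UMI and 91.8 CPM in 930 spots without (log2 ratio 2.01, 1.68 to 2.31). In E4 5xFAD cortex they summed to 229 CPM in 53 spots with *Cxcl10* and 120 CPM in 804 without (0.94, 0.72 to 1.15). Over the whole cortex the interferon list stood at 97.0 and 126 CPM in E3 and E4 5xFAD and at 42.4 to 52.8 CPM in the other sections. Of its 12 genes 3 were called higher in 5xFAD than in young cortex, where 0.976% of all genes were, and none lower.

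*Ccl4* was more frequent in spots that also held *Ccl3*, and so were some genes that are not its neighbours. In E3 5xFAD cortex *Ccl4* was seen in 14.3% of 84 *Ccl3* spots and 4.05% of 865 others, with CPM of 11.5 and 3.31 (log2 ratio 1.79, 0.80 to 2.70). In E4 5xFAD cortex it was seen in 20.9% of 201 *Ccl3* spots and 18.3% of 656 others, with CPM of 17.6 and 12.8 (0.46, 0.01 to 0.89). The difference between the 2 sections was not tested. *Ccl6* (0.98, 0.45 to 1.49) and *Cst7* (1.06, 0.75 to 1.36) were also higher in *Ccl3* spots of E3 5xFAD cortex. In E4 the values were 0.33 (0.01 to 0.65) for *Ccl6*, 0.50 (0.34 to 0.65) for *Cst7* and 1.70 (1.12 to 2.29) for *Cxcl10*. The spot with 37 *Cxcl10* UMIs was among the *Ccl3* spots. Intervals of *Ccl12*, *Cxcl16* and *Cx3cl1* held 0 in both sections, as did that of *Cxcl10* in E3.

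RNA of the receptors of the sparse chemokines was scarce where it is given here. *Ccr1*, *Ccr2*, *Cxcr3* and *Cxcr6* gave 22, 18, 16 and 12 UMIs over all spots of the 6 sections and did not pass the filter. Of 23 chemokine receptor genes 7 were tested in cortex and 5 in hippocampus, and *Cx3cr1* alone was called in 5xFAD against young. It was higher by 0.96 ± 0.14 in hippocampus (adjusted p = 0.000644), and there it also passed the test against aged mice (0.59 ± 0.14, adjusted p = 0.0458).

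The sheddases of CX3CL1 and CXCL16 did not pass the test. *Adam10* was at 53.3 to 60.9 CPM and *Adam17* at 6.55 to 12.7 CPM in cortex, with log2 fold changes of 0.07 ± 0.09 and 0.23 ± 0.21 between 5xFAD and young (edgeR adjusted p = 0.844 and 0.777). Of 30 other chemokine ligands listed, 26 were matched by symbol, 9 could be tested in cortex and 5 in hippocampus, and none was called between conditions there. The median of the 9 was 0.33 for 5xFAD against young cortex. *Ccl5*, a T cell attractant named here after its values were seen, gave 31 and 21 UMIs in E3 and E4 5xFAD cortex and 0 to 3 in the others (4.01 ± 0.77, adjusted p = 0.0693). *Cxcl5*, also named after the fact, was called in thalamus (2.71 ± 0.49 against young, adjusted p = 0.0136).

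The genes whose levels ran most like each chemokine were sought over 48 sums of a section and an area, among 15190 genes. These sums share mice and differ in depth, and the correlations are given as a description. For *Ccl6* they included *Trem2* (Pearson r = 0.92) and *Tyrobp* (0.90), both known from microglia. For *Ccl3* they were *Itgax* (0.80), *Lat2* and *Mpeg1*, for *Ccl4* *Mpeg1* (0.73), *Aif1* and *C1qb*, and for *Cxcl16* *Lyz2* (0.87), *Pdpn* and *Tent5c*.

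For *Cxcl10* they were *Il1a* (0.72), *Naip2* and *Phf11d*, and for *Ccl12* they included *Ly86* and *Sp110* (both 0.66). *Cx3cl1* ran with *C1qtnf4* (0.94) and with *Syt1* (0.91), a calcium sensor of synaptic vesicle release. Among the chemokines themselves the closest pair was *Ccl3* and *Ccl4* (0.69), followed by *Ccl3* and *Ccl6* (0.60), and *Cx3cl1* was at −0.27 to 0.19 with the other 6.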

How the data were processed

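The authors deposited UMI counts per gene and spot, made with Space Ranger (1.3.0 per the processing notes; 1.2.2 in 5 file headers and 2.0.0 in that of E3 5xFAD) and STAR 2.5.1b on a joint mm10 and GRCh38 reference. Barcodes under tissue were kept. Seurat 5.3.0 in R 4.3.3 clustered spots (3000 variable genes without 101 chemokine, microglia and response genes, 20 components, resolution 0.8, 20 clusters), and clusters took the area of their highest marker score. Where leading genes went against the score they decided the name, a rule added after seeing the clusters. UMIs were summed per section and area and tested with edgeR 4.0.16 (TMM, filterByExpr, genotype plus condition, 2 residual degrees of freedom, adjusted p threshold 0.05), so the error is the spread left after both terms. Ratios of 2 sections carry exact conditional 95% intervals, which cover counting error only, as does the limit of 3 UMIs for a count of 0. Named genes were the 7 chemokines, their receptors and sheddases, called genes of the pathway and the 3 most alike, some of which are not reported here. Members and lists were chosen with earlier results of these data known. The fit was tested on simulated counts. Alternatives were DESeq2 1.42.0, other filters, scalings, areas and spots, and leaving out sections.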

Additional observations from a re-analysis of the deposited data

Results flagged for a closer look

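In several pairs the E4 over E3 log2 ratio pointed one way in one group and the opposite way in another, with counting intervals on either side of 0. The differences between pairs were not tested, each pair being 1 section against 1. For *Ccl3* in thalamus the ratio was 4.38 in young mice, on 26 and 3 UMIs, but −1.90 in aged and −0.61 in 5xFAD mice. Within the 5xFAD pair *Ccl3* was 0.93 in cortex. *Ccl4* in thalamus was at 4.58 in young mice, on 10 UMIs and 1 UMI, and at −1.68 in aged mice, and in hippocampus it was at −1.92 in aged and 1.98 in 5xFAD mice. *Ccl6* in 5xFAD was at 0.62 in cortex and 0.81 in hippocampus and at −0.84 in thalamus.

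Chemokine UMIs also occurred in barcodes outside the tissue mask, which no comparison used. In E4 5xFAD, 672 such barcodes held 20 UMIs of *Ccl3*, 13 of *Ccl4* and 29 of *Ccl6* in 1949778 UMIs, where the young sections held 0 to 3 of each in 518 and 519 barcodes with 1225691 and 1232595 UMIs. In E3 aged, 432 such barcodes held 6, 4 and 4 UMIs of these genes in 634666, and in E4 aged 589 held 1, 4 and 3 in 731080. In E3 5xFAD, 6 such barcodes held 3 UMIs of *Ccl6* in 50630.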

How the results depend on the processing

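No paired analysis was possible because the labels give no replicate numbers and each group is 1 section. Counts of the 7 chemokine genes called are given against the main count, without the share of all genes called in each alternative. Counts of intervals above 0 are likewise given without the share of all genes. For 5xFAD against young cortex (6) equal spots of each cluster gave 3, and leaving out single sections gave 2 to 6. In hippocampus (6) DESeq2 and spots of at least 5000 UMIs gave 1, areas by marker score alone and equal spots 2, areas without centring 3, and leaving out sections 1 to 6. For 5xFAD against aged cortex (1) no filter on low counts gave 4 and leaving out sections 1 to 5. In hippocampus (1) DESeq2, equal spots and spots of at least 5000 UMIs gave 0, no filter 2, and leaving out sections 0 to 2. For aged against young cortex (0) DESeq2 and no filter gave 2, no scaling factor and equal spots 1, and leaving out sections 0 to 2, where 2 came without either aged or either 5xFAD section. In hippocampus (3) no scaling factor gave 1, and DESeq2, areas by marker score alone, areas without centring, equal spots, spots of at least 5000 UMIs and removal of spots with 8 or more UMIs of one gene gave 0, with 1 to 3 on leaving out sections. For E4 against E3 leaving out sections gave 0 to 1 in cortex and 0 in hippocampus. The cause was not tested, except that equal spots and fewer sections leave less data. Genes whose counting interval lay above 0 numbered 5 for 5xFAD over young E3 hippocampus (3 by marker score alone or with spots of at least 5000 UMIs), 4 for E4 over E3 in 5xFAD cortex (1 with equal spots), 2 in 5xFAD hippocampus (4 without centring or with spots of at least 5000 UMIs) and 1 in aged hippocampus (0 by marker score alone, without centring, with spots of at least 5000 UMIs or without the richest spots). *Cx3cl1* changed sign near 0: its log2 ratio of 5xFAD over young E4 cortex was −0.0071 without mitochondrial genes in the denominator (0.08 with them), and over all spots its ratio beside *Cst7* at 2 or more *Cst7* UMIs was −0.013 in E3 and −0.039 in E4. Naming areas by marker score alone was the rule first set, and the leading-gene rule of the main areas was added after seeing the clusters. That rule moved a cluster of 926 spots from fiber tracts to hippocampus. The removal of rich spots was chosen after seeing the data. Fiber tracts with spots of at least 5000 UMIs were not run. Of the fold changes of chemokine genes in these fits, 1962 kept their side of the threshold, 94 lost it and 77 gained it. These counts do not speak to the sign of values that were not called. Low counts limit *Ccl12*, *Cxcl10* and *Cxcl16* most.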
